A study of Schizosaccharomyces pombe with 9 samples.

Results

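The fission yeast gene *yhb1* (SPAC869.02c) encodes a nitric oxide dioxygenase, and its mRNA is described here across 9 RNA-seq libraries of 3 strains. It is 1 gene of the 6988 in the deposited count table, 5156 of them coding, and it was selected on its measured abundance in WT cells. Its level and rank in WT are therefore a description, and the comparisons with WT share the values that chose the gene. The 3 strains were *ecl123*Δ, with hygMX, natMX and kanMX cassettes in place of *ecl1*, *ecl2* and *ecl3*; *ecl3*Δ, with a kanMX cassette in place of *ecl3* only; and WT, with all 3 *ecl* genes. The *ecl* genes encode small proteins known as extenders of chronological lifespan, and the comparison asks which mRNAs depend on them in growing cells. Each strain was sequenced as 3 biological replicates from log phase cultures at 30 °C in YES, a rich medium. All of the strains were *h*−, and the strain list of the study gives *leu1-32*, *ura4-D18* and *his3-D1* for all of them, with *ade6-m216* in WT and without saying which *ade6* allele either mutant carries. Every genotype was a single strain, so a difference between genotypes cannot be told apart from a difference between these strains.

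The *yhb1* product belongs to the flavohemoglobins, in which a globin domain that holds heme is fused to a reductase domain that holds FAD. Electrons from NAD(P)H pass through the flavin to the heme iron, where nitric oxide and oxygen are turned into nitrate. Enzymes of this family are known in yeasts and bacteria for protecting cells from nitric oxide. In the RefSeq annotation of ASM294v3 the *yhb1* gene lies on chromosome I, in 1 exon of 2000 nucleotides of which 1284 are coding. The authors counted on the build ASM294v2, so no coordinates are given. Of the 1950 windows of 51 bases, the read length, that lie in the exon, 0 occur a second time in the genome, so no exact copy of such a window could share its reads.

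The libraries held 23254907 to 34871124 counts in genes. The deletion of *ecl3* could be checked, with counts of 0, 0 and 1 in *ecl123*Δ, 0 in each *ecl3*Δ library, and 23, 15 and 42 in WT. The reads of *ecl1* and *ecl2* do not check their deletions, because only 29.6% and 16.9% of these annotated mRNAs are coding: *ecl1* had 2840, 2640 and 3557 counts in *ecl123*Δ, against 468, 393 and 489 in WT. Counts of *ura4* were 0 in all 9 libraries and those of *his3* were 294 to 658. Of the M mating type markers, 5 of 7 were tested and 4 were called lower in *ecl123*Δ against WT (*mfm1*, *mfm2*, *mam1* and *mam2*), where 0.458% of all coding genes tested were called lower, with a summed normalized read count of 2147 to 2391 in *ecl123*Δ, 3413 to 6675 in *ecl3*Δ and 5620 to 6107 in WT. The reads of *mat1-Mc* were 0 in every library, and all of its sequence is repeated in the genome. The P mating type markers *map2* and *map3* summed to 388 to 540 in *ecl123*Δ, 365 to 508 in *ecl3*Δ and 347 to 423 in WT, and neither was called; the other P markers were not matched by name. Whether mating type genes have a part in the *yhb1* values was not tested.

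In the 3 *ecl123*Δ cultures the *yhb1* mRNA was at 15.8%, 24.3% and 16.2% of the WT mean. RNA from whole cultures was sequenced, so fewer cells with the mRNA and less of it per cell cannot be told apart. The counts were 4714, 6114 and 4817 in *ecl123*Δ replicates 1 to 3, which became normalized read counts of 4564, 7003 and 4654 after scaling by TMM, the trimmed mean of M-values. In *ecl3*Δ the counts were 8131, 30776 and 12364, and the normalized read counts 6687, 31614 and 14127. In WT the counts were 23198, 25369 and 38042, and the normalized read counts 25072, 30929 and 30457. The 3 *ecl123*Δ libraries thus lay below all 3 WT libraries. The *ecl3*Δ libraries spanned nearly the whole range between the other strains: replicate 1 was below *ecl123*Δ replicate 2, replicate 3 was in between, and replicate 2 was as high as the highest WT library. Relative to the WT mean, the *ecl3*Δ libraries were at 23.2%, 110% and 49.0%. Counting error, 1 over the square root of the count, was between 0.513% and 1.46% of each value, well under the differences between the strain means. Some gaps were not far from this error, and the order of the libraries in them is not firm. These were the gaps between *ecl123*Δ replicates 1 and 3 and between WT replicates 2 and 3. The same holds for *ecl3*Δ replicate 1 beside *ecl123*Δ replicate 2, and for *ecl3*Δ replicate 2 beside the highest WT library.

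**Figure D1:**
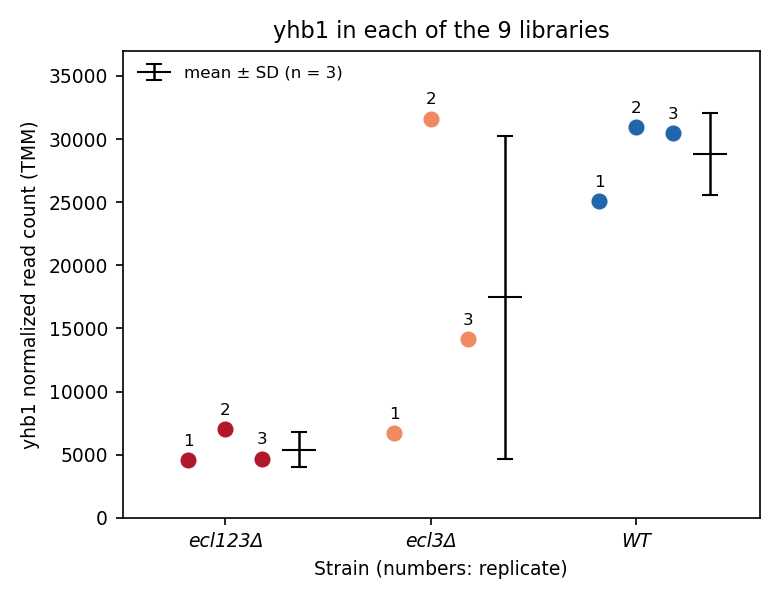
Normalized read count of *yhb1* (TMM, vertical axis) in each library of *ecl123*Δ, *ecl3*Δ and WT; numbers beside the points are replicates, and the bar beside each strain is the mean ± SD of 3 libraries. The *ecl123*Δ points lie between 4564 and 7003 and the WT points between 25072 and 30929, whereas the *ecl3*Δ points run from 6687 to 31614.

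To place *yhb1* among other mRNAs, the counts per 1000000 reads, or CPM, were divided by the annotated exon length in kb. The mean level was 95.0 ± 24.3 CPM per kb in *ecl123*Δ, 307 ± 225 CPM per kb in *ecl3*Δ and 506 ± 57.2 CPM per kb in WT (SD, n = 3 each). These levels were 2.70, 8.65 and 14.1 times the median of the 5139 coding genes with a length, in the same order of strains. By rank, *yhb1* was number 1138 in *ecl123*Δ, number 402 in *ecl3*Δ and number 274 in WT, within the top 22.1%, 7.82% and 5.33% of coding genes. The rank in single libraries was 1347, 915 and 1295 in *ecl123*Δ, 927, 257 and 488 in *ecl3*Δ, and 307, 263 and 260 in WT. The mRNA thus held nearly the same place in the 3 WT cultures and places as far apart as 257 and 927 in the *ecl3*Δ cultures.

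**Figure D2:**
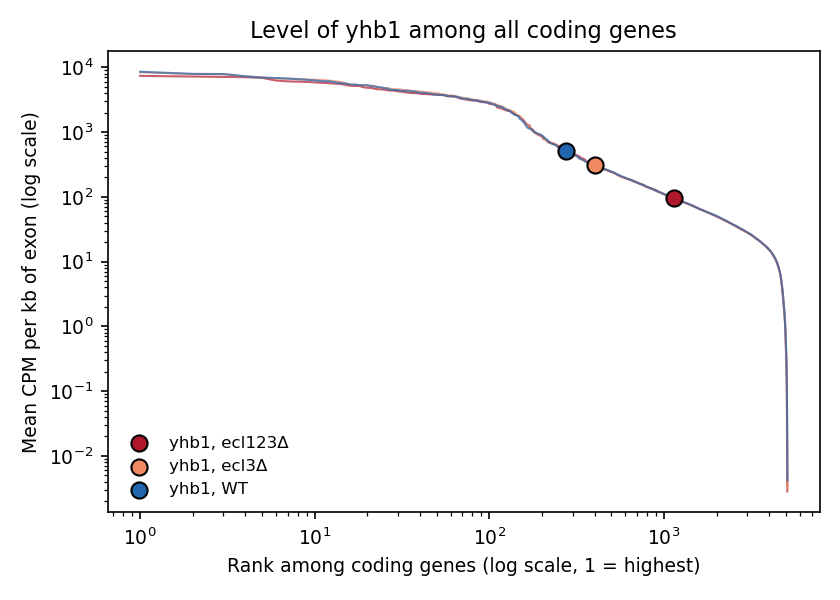
Mean CPM per kb of exon (vertical axis, log scale) against rank among coding genes (horizontal axis, log scale), with a line per strain and a circle for *yhb1* in each. The lines of the strains nearly coincide, and the *yhb1* circle sits at rank 1138 in *ecl123*Δ, 402 in *ecl3*Δ and 274 in WT.

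Genes that ranked beside *yhb1* in WT had ranks of 245 to 361 in *ecl123*Δ. The 3 just above it in WT were *sla1*, which encodes a La-motif protein that binds RNA, SPCC1235.01, an uncharacterized protein, and *bip1*, the Hsp70 chaperone of the endoplasmic reticulum. The 3 just below were *tom5*, a subunit of the mitochondrial import pore, *pda1*, a subunit of pyruvate dehydrogenase, and *adk1*, adenylate kinase. Their WT levels were 494 to 511 CPM per kb, with a SD in WT of 8.88 to 28.7 CPM per kb, so that *yhb1* could not be separated from them in WT given its own SD of 57.2. In *ecl123*Δ the log2 fold changes of these 6 neighbours against WT were between -0.54 and 0.27, with 0 of them called. Of the 273 coding genes above *yhb1* in WT per kb, 2 were called lower in *ecl123*Δ, *obr1* and *tvp15*, and 0 were called higher. Over all coding genes tested 0.458% were called lower and 0.279% higher, so calls in sets of these sizes say little about them. The most negative fold change among these 273 genes was the log2 of -2.25 (standard error 0.62; edgeR quasi-likelihood test, adjusted p = 0.105) of SPAPB24D3.07c, which was not called.

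The *yhb1* mRNA was lower in *ecl123*Δ than in WT. The mean normalized read count was 5407 ± 1383 in *ecl123*Δ and 28819 ± 3254 in WT (SD, n = 3 each), so that *ecl123*Δ cells had 18.8% of the WT level. The log2 fold change was -2.41 (standard error 0.44, 95% interval -3.39 to -1.44), which in edgeR's quasi-likelihood test, adjusted over all 6257 genes tested, had a p of 0.0423. Calls required an adjusted p no greater than 0.05, a fold change of 2 or more and, in whichever strain was higher, a mean of 100 or more normalized reads; *yhb1* met each limit. Of the 5019 coding genes tested, 23 were called lower in *ecl123*Δ, which is 0.458%, and 14 were called higher, which is 0.279%. All 9 pairs of an *ecl123*Δ and a WT library had the lower value in *ecl123*Δ. Such a full separation downward was seen for 686 coding genes, or 13.7%, and upward for 642, or 12.8%. An exact permutation test of the *yhb1* values alone gave a two-sided p of 0.1, the smallest that 3 libraries against 3 allow. Since the gene was chosen by its WT level and with this difference known, these p-values do not stand as an independent test.

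The call depended on which libraries were in the fit, whereas the size of the difference moved little. With each library left out in turn, the log2 fold change of *yhb1* in *ecl123*Δ against WT was between -2.64 and -2.30. The adjusted p of the edgeR test was then 0.128, 0.178 and 0.182 without WT replicates 1, 2 and 3, 0.0816 without *ecl3*Δ replicate 3, and 0.154 and 0.0591 without *ecl123*Δ replicates 1 and 3, so that the call was lost in these 6 fits. Without *ecl3*Δ replicates 1 or 2 or *ecl123*Δ replicate 2 it was 0.00843, 0.00324 and 0.0472. The *ecl3*Δ libraries enter this comparison only through the shared estimate of spread. With only the *ecl123*Δ and WT libraries in the fit, the log2 fold change was -2.41 with a standard error of 0.18. The edgeR adjusted p was then 0.00102. The number of coding genes called lower moved with the library left out as well, between 0 without WT replicate 1 or *ecl123*Δ replicate 1 and 65 without *ecl3*Δ replicate 2.

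Among the 23 coding genes called lower in *ecl123*Δ, *yhb1* had the third highest mean in WT, and it was chosen as an abundant WT mRNA. It had the fourth most negative fold change, after *ftm2*, *mfm1* and *mam2*, whose WT means were 158, 107 and 680 normalized reads. In read counts it lost 23412 normalized reads, second to *obr1* with 42587 and ahead of the inositol transporter gene *itr2* with 15550. Read counts rise with the length of a gene, so the order is one of reads and not of molecules. Per kb, *obr1* averaged 1636 CPM per kb in *ecl123*Δ and 3347 CPM per kb in WT.

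In *ecl3*Δ the *yhb1* mRNA could not be separated from WT. The mean normalized read count was 17476 ± 12797 in *ecl3*Δ and 28819 ± 3254 in WT (SD, n = 3 each), and the log2 fold change was -0.72 (standard error 0.44, 95% interval -1.70 to 0.25; edgeR adjusted p = 1.00). The interval reaches from a level of under 1/3 of WT to one above WT, so these libraries leave the size of any difference undetermined. The value was lower in *ecl3*Δ in 6 of 9 pairs of libraries, and the exact permutation test gave a two-sided p of 0.4. No coding gene was called in this comparison, 0 of 5019 or 0%, where 37 were lower and 30 higher at an unadjusted p under 0.05 and DESeq2 called 0. Without *ecl3*Δ replicate 2, the library with the highest *yhb1* level, the log2 fold change of *yhb1* was -1.47 (edgeR adjusted p = 0.0922), and 12 coding genes were called lower. Without *ecl3*Δ replicate 1 it was -0.33.

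Between the 2 mutants, *yhb1* averaged 5407 ± 1383 in *ecl123*Δ and 17476 ± 12797 in *ecl3*Δ (SD, n = 3 each), a comparison in which WT libraries add only to the estimate of spread. The log2 fold change was -1.69 (standard error 0.44, 95% interval -2.67 to -0.71), and its edgeR adjusted p = 0.207 was above the threshold. The value was lower in *ecl123*Δ in 8 of 9 pairs, and the exact permutation test gave a two-sided p of 0.2. The exception was *ecl123*Δ replicate 2 against *ecl3*Δ replicate 1, a pair whose order is not firm. In the same comparison 0 of 5019 coding genes were called lower, or 0%, with 215 lower at an unadjusted p under 0.05 and 13 called lower by DESeq2. Leaving out *ecl3*Δ replicate 1, the lowest of that strain, moved the log2 fold change to -2.08 (edgeR adjusted p = 0.0484), whereas without *ecl3*Δ replicate 2 it was -0.94 (adjusted p = 0.546).

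The spread of *yhb1* between cultures of 1 strain was widest in *ecl3*Δ and above that of most coding genes in all 3 strains. The highest value was 1.53 times the lowest in *ecl123*Δ, 4.73 times in *ecl3*Δ and 1.23 times in WT, and the coefficients of variation were 25.6%, 73.2% and 11.3% in that order. The SD of log2 CPM was 0.35 in *ecl123*Δ, 1.12 in *ecl3*Δ and 0.17 in WT. These values rest on single libraries: the SD was 0.020 without *ecl123*Δ replicate 2 and 0.016 without WT replicate 1, and in *ecl3*Δ it was 0.76 to 1.58 with a library left out. To set these against other mRNAs, the SD was computed for all coding genes that averaged 100 or more normalized reads in the strain. In *ecl3*Δ the SD of *yhb1* was 12.2 times the median SD, and 16 of 4823 coding genes had a larger one. Among the 491 coding genes with a mean of at least 10000 in *ecl3*Δ, 1 had a larger SD, SPAPB24D3.07c, with normalized read counts of 4221, 39212 and 8865. In *ecl123*Δ the SD of *yhb1* was 1.83 times the median, with 791 of 4826 genes above it, and in WT it was 2.45 times the median, with 478 of 4829 above it. Among the 499 coding genes with a mean of at least 10000 in WT, the SD of *yhb1* was 3.34 times the median and 24 genes were above it. A SD of 3 libraries is itself imprecise, and no test was made of the difference in spread between strains.

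**Figure D3:**
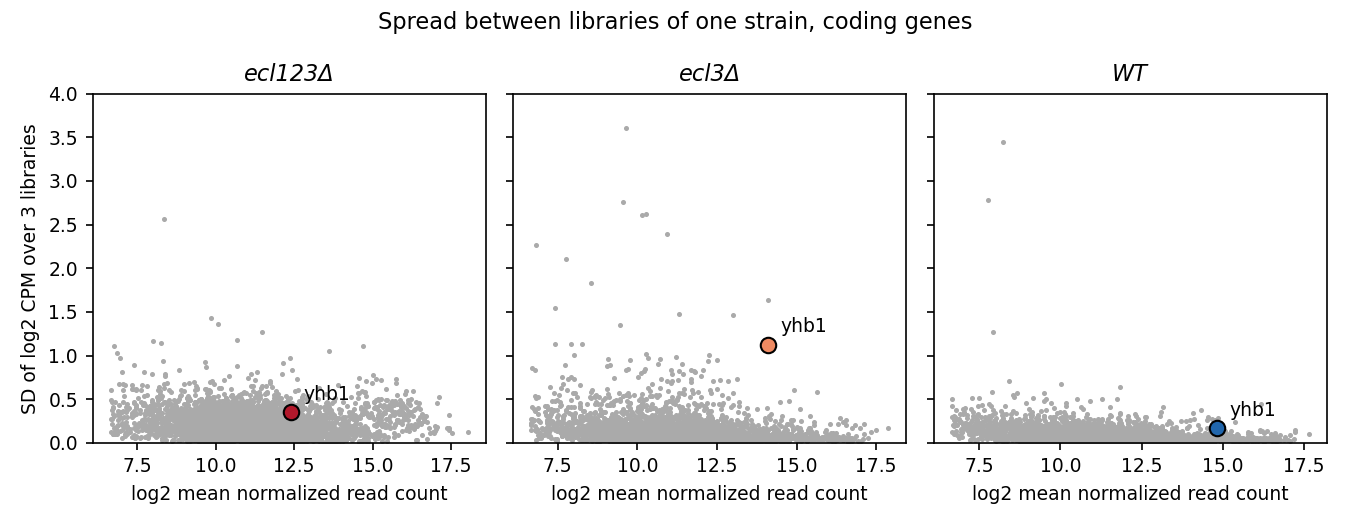
SD of log2 CPM over the 3 libraries of a strain (vertical axis) against the log2 of the mean normalized read count (horizontal axis), in panels for *ecl123*Δ, *ecl3*Δ and WT; each grey point is a coding gene with a mean of at least 100 and the large point is *yhb1*. In *ecl3*Δ the *yhb1* point, at a SD of 1.12, lies above nearly all genes of its abundance, whereas in the other panels it lies at 0.35 and 0.17.

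The *ecl3*Δ libraries were placed in a similar way for other genes that were lower in *ecl123*Δ. On a log2 scale where the WT mean is 0 and the *ecl123*Δ mean is 1, *yhb1* lay at 0.86, -0.06 and 0.42 in *ecl3*Δ replicates 1, 2 and 3. The other 22 coding genes called lower in *ecl123*Δ had median positions of 0.62, -0.05 and 0.32 in these libraries. In 21 of these 22 genes replicate 2 was the highest *ecl3*Δ library, as it was for *yhb1*, and *sul2* was the exception. Over all 5019 coding genes tested, replicate 2 was the highest *ecl3*Δ library in 37.7%. These positions rest on the same 9 libraries, so they describe how the libraries stand and are not separate observations.

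The genes whose pattern was most like that of *yhb1* were found by Pearson's r of log2 CPM over the 9 libraries, among 4824 coding genes that averaged 100 or more normalized reads. An r of at least 0.9 was reached by 206 of them, or 4.27%, and an r of -0.9 or less by 123, or 2.55%. The closest was *ncs1*, a calcium-binding protein, with an r of 0.999. Its normalized read counts were 2271, 3084 and 2156 in *ecl123*Δ, 3013, 8079 and 4720 in *ecl3*Δ, and 7050, 8088 and 7912 in WT. The order of the libraries was thus almost that of *yhb1*, over a smaller range: the log2 fold change of *ncs1* in *ecl123*Δ against WT was -1.62 (standard error 0.29; edgeR adjusted p = 0.0423). The next was SPAC4C5.03, a membrane protein with PQ loops, with an r of 0.997, whose log2 fold change was -1.03 (standard error 0.19). It was followed by SPAC977.18, an uncharacterized protein, which had 22, 81 and 17 normalized reads in *ecl123*Δ, 40, 1922 and 290 in *ecl3*Δ, and 1124, 1812 and 1880 in WT. Of the windows of this gene, 84.0% occur elsewhere in the genome, so its counts are uncertain, and it was not called (edgeR adjusted p = 0.0638).

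Of the other 7 of the 10 most alike genes, 6 are given, with r values of 0.986 to 0.993. They were SPAC1952.04c, an uncharacterized protein; *uge1*, which interconverts UDP-glucose and UDP-galactose; *mpg1*, which makes GDP-mannose; the Rab-binding protein genes *yip3* and *yip5*; and *mug8*. The log2 fold changes of these 6 in *ecl123*Δ against WT ran from -1.46 for SPAC1952.04c to -0.77 for *mpg1*, a range that does not cover all of the 10 genes. Among the 9 genes given, *ncs1*, SPAC4C5.03 and SPAC1952.04c were called lower, whereas *uge1*, *yip3* and *mug8* passed the adjusted p but fell short of a 2-fold change. With the strain means removed, the most alike genes were *arh1*, the ferredoxin reductase of mitochondrial iron-sulfur cluster assembly, *ncs1*, SPAC977.18, SPAC4C5.03 and the SNARE gene *fsv1*, with r values of 0.988 to 0.996 in which the *ecl3*Δ libraries, the most spread for *yhb1*, weigh most.

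The 5 most opposite genes had r values from -0.981 to -0.977. The cysteine transporter gene SPCPB1C11.03 had normalized read counts of 1607, 994 and 1764 in *ecl123*Δ, 1133, 533 and 752 in *ecl3*Δ, and 564, 522 and 484 in WT. It was called higher in *ecl123*Δ against WT, by 1.48 on the log2 scale (standard error 0.27; edgeR adjusted p = 0.0423). The other called gene was SPBC530.07c, of the TENA/THI family, higher by 1.07 on the log2 scale (standard error 0.15). The transporter gene *amf1*, the homocysteine synthase gene *met17* and *pud1*, a pseudouridine-5′-phosphatase gene, had log2 fold changes of 0.45, 0.77 and 0.46 and were not called.

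**Figure D4:**
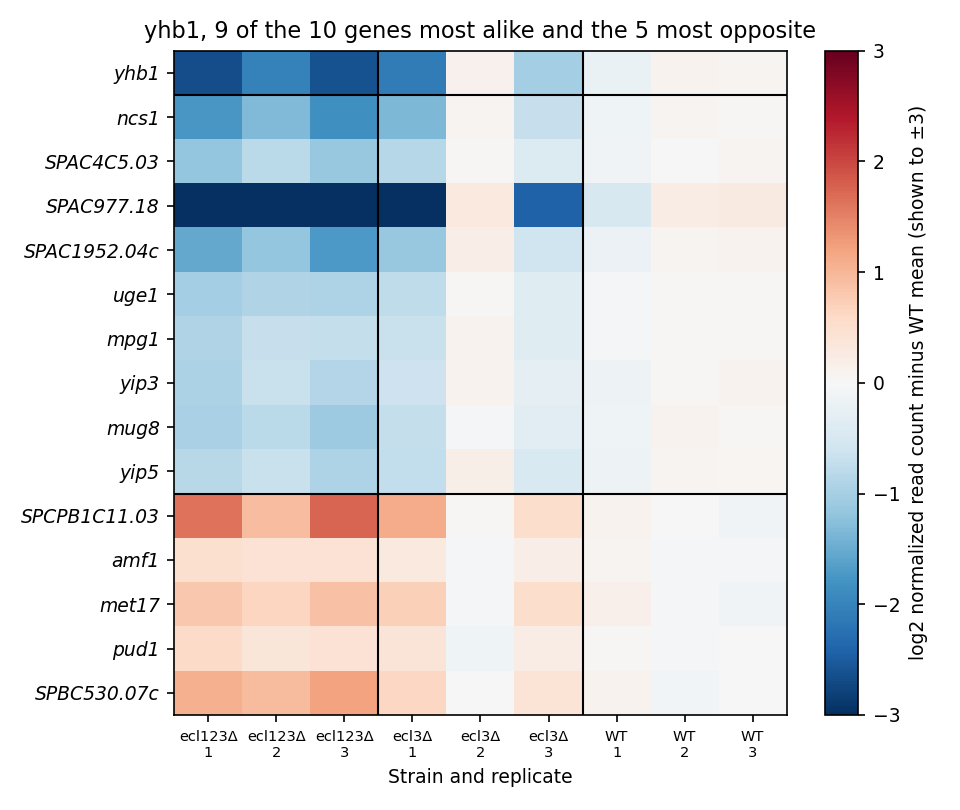
Log2 normalized read count minus the WT mean, as color, for *yhb1* (top row), 9 of the 10 coding genes most alike and the 5 most opposite, in the 3 libraries each of *ecl123*Δ, *ecl3*Δ and WT. Blue is below and red above the WT mean, with color limited to ±3. In *ecl3*Δ, replicate 1 has colors close to those of *ecl123*Δ and replicate 2 close to those of WT. The normalized read counts of *yhb1* in these were 6687 and 31614. The other genes were chosen by their r with *yhb1* over these same libraries, so this likeness was fixed by the choice.

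The genes for the enzymes that make the cofactors of *yhb1* were compared next. Since 0.458% of all coding genes were called lower in *ecl123*Δ against WT and 0.279% higher, a count of 0 in lists of this size says little about them. Of 8 heme synthesis genes, all tested, 0 were called lower and 0 higher, with a median log2 fold change of 0.012 beside 0.0025 over all coding genes tested. The first enzyme of the pathway, 5-aminolevulinate synthase (*hem1*), averaged 7931 ± 515 normalized reads in *ecl123*Δ, 10624 ± 1479 in *ecl3*Δ and 11130 ± 318 in WT (SD, n = 3 each). Its log2 fold change in *ecl123*Δ against WT was -0.49 (standard error 0.10; edgeR adjusted p = 0.0588). The *hem13* gene, which encodes the coproporphyrinogen oxidase that uses oxygen, averaged 6699 ± 1420 normalized reads in *ecl123*Δ, 10338 ± 2411 in *ecl3*Δ and 11018 ± 1256 in WT. For this gene it was -0.72 (standard error 0.19; edgeR adjusted p = 0.0923). Both genes had r values of 0.94 with *yhb1* over the 9 libraries, whereas *hem2*, which encodes porphobilinogen synthase, had an r of 0.63 and a value of -0.06 on the log2 scale (standard error 0.08). Other members went the opposite way, with an r of -0.91 and a log2 fold change of 0.23 for *hem4*, an r of -0.79 and 0.30 for *hem3*, and an r of -0.59 and 0.21 for *hem15*.

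Of 8 genes for riboflavin and flavin cofactors, 0 were called in either direction, where 0.458% of all coding genes were called lower and 0.279% higher. Their median log2 fold change in *ecl123*Δ against WT was -0.09, with 7 of 8 below 0, beside a median of 0.0025 over all coding genes tested. The 3 with the most reads were *rib3*, *rib1* and *rib4* of the riboflavin pathway. Their log2 fold changes were -0.05 (standard error 0.16), -0.11 (standard error 0.10) and -0.10 (standard error 0.09), the last 2 near their standard error. The most negative were -0.58 (standard error 0.26, edgeR adjusted p = 0.260) for *rib7* and -0.47 (standard error 0.14, edgeR adjusted p = 0.106) for *fmn1*. The latter encodes the riboflavin kinase that makes FMN and had an r of 0.82 with *yhb1*, the highest of the list. The r values of the other members ran from -0.28 to 0.61. The 3 glutathione-dependent formaldehyde dehydrogenase genes belong to a family that also reduces S-nitrosoglutathione, a carrier of nitric oxide. The largest in reads, *fmd1*, averaged 4514 ± 242 normalized reads in *ecl123*Δ and 4828 ± 186 in WT, and the log2 fold changes were -0.10 for *fmd1*, -0.21 for *fmd2* and -0.29 for *fmd3*, with 0 of 3 called.

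Enzymes against other reactive species had values on both sides of 0. Of 10 genes listed as peroxide and superoxide enzymes, 0 were called lower and 0 higher in *ecl123*Δ. The shares over all coding genes were 0.458% and 0.279%. The list had a median log2 fold change of 0.04 and values from -0.08 for *gpx1* to 0.79 for *pmp20*. It was drawn up by symbol, and not all members are such enzymes by annotation. RefSeq names *pmp20* a thioredoxin-related chaperone and *ccp1*, also listed, a CENP-A histone disassembly chaperone. The superoxide dismutase gene *sod1* had -0.05 (standard error 0.12), the peroxiredoxin gene *tpx1* 0.22 (standard error 0.16) and the thioredoxin gene *trx1* 0.20 (standard error 0.15). Of 8 genes listed as other heme proteins or their partners 0 were called, with a median of -0.02. The count and the median include *ccp1*, which by its annotation is neither. Values of this list ran from -0.32 (standard error 0.18) for *erg11* to 0.76 (standard error 0.28) for the catalase gene *ctt1*, also in the peroxide list. Cytochrome c (*cyc1*) had 0.14 (standard error 0.09) and cytochrome b5 (*oca8*) -0.08 (standard error 0.13). The value was 0.04 (standard error 0.10) for *erg5*, a sterol desaturase of the cytochrome P450 family.

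The coding genes on both sides of *yhb1* were compared in the gene order of RefSeq, 5 on each side. Most had few reads, and 6 of the 10 were tested. Only *sul2*, which encodes a sulfate transporter and lies 3 genes away on the same strand, was called lower in *ecl123*Δ. Its normalized read counts were 849, 1023 and 1165 in *ecl123*Δ, 1280, 2194 and 2206 in *ecl3*Δ, and 1979, 2114 and 2270 in WT, and the log2 fold change in *ecl123*Δ against WT was -1.07 (standard error 0.20; edgeR adjusted p = 0.0423). The adjacent urea transporter gene SPAC869.03c had 12, 1 and 17 counts in *ecl123*Δ, 1, 5 and 15 in *ecl3*Δ, and 23, 43 and 56 in WT, a log2 fold change of -2.01 in *ecl123*Δ against WT (standard error 0.78; edgeR adjusted p = 0.185). On the other side, the amidase gene SPAC869.01 was at 1 to 32 counts per library and was not tested, and *pfl9*, a DIPSY family glycoprotein gene, was at -0.67 in the same comparison (standard error 0.34; edgeR adjusted p = 0.305). The median of the 6 tested genes was -0.82, with 5 of 6 below 0 and 1 called, beside a median of 0.0025 and 0.458% called lower over all coding genes tested. The remaining 3 tested genes, *mel1*, SPAC186.02c and SPAC186.04c, averaged under 100 normalized reads in every strain, as did SPAC869.03c. None of these could be called at such counts. The median lies between *pfl9* and *mel1*, the latter at -0.96 (standard error 0.68), so it rests on few reads and says little about the region. The annotation of ASM294v3 has 2 noncoding genes that overlap *yhb1*, SPNCRNA.4492 and SPNCRNA.4493, and neither is among the genes counted. The kit keeps the strand of the RNA, but the strand setting of the counting is not given in the sources used here, so reads of an overlapping RNA in the *yhb1* count cannot be told apart. The 3 noncoding genes between *yhb1* and its coding neighbours, SPNCRNA.280, SPNCRNA.281 and SPNCRNA.282, had 0 to 21 counts per library.

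**Figure D5:**
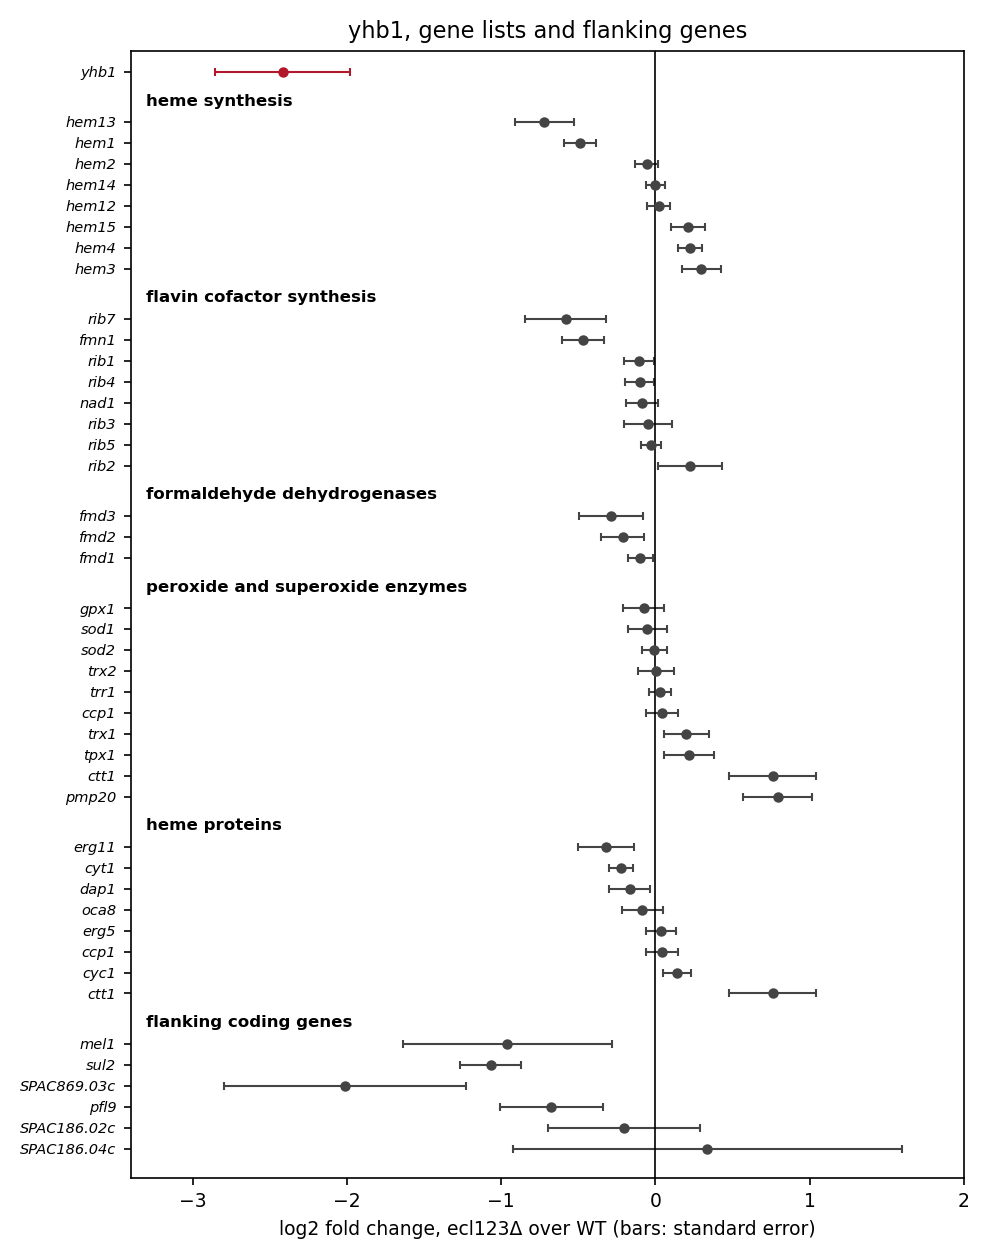
Log2 fold change of *ecl123*Δ over WT (horizontal axis, bars show the standard error of the edgeR fit) for *yhb1* in red and, in black, the genes of 5 lists and the tested coding genes that flank it. The *yhb1* point lies at -2.41, whereas the cofactor genes lie between -0.72 for *hem13* and 0.30 for *hem3*. The genes *ctt1* and *ccp1* each stand in both the peroxide and the heme protein list, and *ccp1* is annotated as a histone chaperone.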

How the data were processed

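Per the labels, the submitters' processing notes and the paper's methods, the authors sequenced stranded poly(A)+ libraries in read pairs (51 bases each). HISAT2 2.1.0 aligned them to ASM294v2, and HTSeq 0.10.0, after SAMtools, gave the reads per gene. Counts were deposited as whole numbers, not normalized, and all 9 of its columns were used. The authors' DESeq2 tables of each mutant against WT (mean normalized counts, fold changes and p-values) were not used. Names, products, gene order and exon lengths came from RefSeq (ASM294v3), which matched 6836 of 6988 genes. Coding genes were all those without the systematic ID of a noncoding class.

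Genes were filtered with filterByExpr, scaled by TMM and fitted in 1 quasi-likelihood model of all 9 libraries with edgeR 4.0.16, limma 3.58.1 and R 4.3.3, with Benjamini-Hochberg adjustment over 6257 genes; the functions were tested on simulated data. Normalized read counts are counts over the effective library size times its mean, and log2 CPM used a prior count of 2. Libraries held 23254907 to 34871124 counts, and counting error covers no variation between cultures. Alternatives were scaling by library size alone or by RLE, DESeq2 1.42.0, omission of the low-count filter, the 2 strains alone, a replicate block, a 1.5-fold limit and each library left out.

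The gene and the lists were chosen with earlier results of these data known. Named genes were *yhb1*, its 3 neighbours on each side in WT rank, the 10 most and 5 least correlated genes, the 5 most correlated within strains, flanking genes, called list members and up to 3 more per list with the highest mean count, and strain check genes, of which 1 most correlated gene is not reported here; *obr1*, *tvp15*, *ftm2*, *itr2* and SPAPB24D3.07c were named after their values were seen. In the heme and flavin lists, 2 planned symbols were replaced by the RefSeq symbols for the same steps (*hem4* and *nad1*), and *fmd3* was added by its product. The planned look at the protein and promoter sequence was not run, since no sequence of the authors' build was used here.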

Additional observations from a re-analysis of the deposited data

How the results depend on the processing

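Over 16 alternatives each, the log2 fold change of *yhb1* kept its sign in all 3 comparisons. In *ecl123*Δ against WT it was called in 10 of 16, with adjusted p from 0.000413 (DESeq2) to 0.182; with a library left out it was -2.64 to -2.30 and was called in 3 of 9. In *ecl3*Δ against WT it was -1.47 to -0.33 and called in 0 of 16. In *ecl123*Δ against *ecl3*Δ it was -2.08 to -0.94 and called in 1 of 16. Correlations were -0.41 to 0.36 between libraries of the same replicate number and -0.44 to 0.44 between those of different numbers. Such values cannot show whether cultures were handled in pairs, and the sources used here do not say. With a replicate block, *yhb1* had a log2 fold change of -2.46 (edgeR adjusted p of 0.0286) in *ecl123*Δ against WT, -0.95 in *ecl3*Δ against WT and -1.51 between the mutants, and 35 coding genes were called lower in *ecl123*Δ against WT. The count of 23 was 56 with DESeq2, 62 with only the 2 strains in the fit and 0 to 65 with a library left out. The count of 14 called higher was 33 with DESeq2, 23 at 1.5-fold and 1 to 39 with a library left out. The WT rank of *yhb1* was 203 by CPM not divided by length, against 274 per kb. Of the 10 most alike genes, 2 were shared with the 10 by Spearman correlation, 8 or 9 with other scalings and 5 to 10 with a library left out, the lowest without *ecl123*Δ replicate 1. The cause of these shifts was not tested. The p-values of the fits set a difference against spread between cultures, estimated over all strains in the fit and moderated across genes. With 3 cultures of 1 strain per genotype, they do not cover spread between independent strains of a genotype. For differences between strains, depth was not the limit for *yhb1*.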

Other observations

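Squared differences per gene between 2 replicates were averaged and divided by counting noise. The result was 242 and 214 for *ecl123*Δ replicate 3 set against replicates 1 and 2, 85.6 for *ecl3*Δ replicate 1 set against replicate 2, and 7.63 to 42.9 for the other pairs. The *yhb1* level was 4654 normalized reads in *ecl123*Δ replicate 3 and 4564 in replicate 1, and *ecl3*Δ replicates 1 and 2 held the lowest and highest level of their strain, 6687 and 31614. Among the 16 coding genes with a larger SD than *yhb1* over the *ecl3*Δ cultures was *prz1*, which encodes the calcineurin-responsive transcription factor. It had 2478, 17727 and 4395 normalized reads in *ecl3*Δ replicates 1, 2 and 3, and an r of 0.97 with *yhb1* over the 9 libraries. This gene was chosen after its values were seen. Where an r was computed, the others had values from -0.12 for *gdt1* to 0.997 for SPAC977.18.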
